A study of Homo sapiens with 4 samples.

Results

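The lysyl oxidases and collagen hydroxylases are the enzymes that modify lysine and proline residues of collagen, and 10 of their genes were followed here in a drug-resistant TNBC line and its parental line: *LOX*, *LOXL1*, *LOXL2*, *LOXL3* and *LOXL4*, the lysyl hydroxylase genes *PLOD1*, *PLOD2* and *PLOD3*, and *P4HA1* and *P4HA2*, which encode catalytic subunits of collagen prolyl hydroxylase. The members were chosen by gene symbol, and all 10 are among the 20809 targets of the deposited tables. MDA-MB-468/R is a subline of the basal-type TNBC cell line MDA-MB-468, selected by stepwise exposure to doxorubicin (adriamycin) with cyclophosphamide (cytoxan) and then docetaxel (taxotere) over 6 months per the labels. MDA-MB-468/WT is the untreated parental line, whose treatment label reads none although a protocol label of the same samples names the drugs. There were 2 libraries in each group, each subline is a single derived line, and no label or method says that replicates came from separate cultures. The p-values therefore reflect only how far these libraries differ from one another, and that spread may be technical.

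RNA was measured with the Ion AmpliSeq Transcriptome kit, in which 1 short amplicon stands for each gene, and a value is the log2 of the reads of that amplicon per 1000000 reads of the library (RPM) plus 1. Reads are therefore compared between libraries and not between genes. The libraries held 7004881 and 7331514 reads in MDA-MB-468/R and 6838122 and 7980295 reads in MDA-MB-468/WT, and 3 reads, taken as the detection floor, corresponded to 0.376 to 0.439 RPM. Replicates of MDA-MB-468/R were less alike than those of MDA-MB-468/WT, with an SD over genes of their log2 differences of 0.355 in MDA-MB-468/R, against 0.210 in MDA-MB-468/WT. All 7 listed markers of the labelled line were detected in every library, from *KRT6B* at 20.3 to 41.5 RPM to *EGFR* at 4770 to 5712 RPM. For 6 of the 7, both MDA-MB-468/R libraries lay below MDA-MB-468/WT, as for 32.2% of all tested genes. *EGFR*, *KRT8*, *KRT18*, *CDH1* and *EPCAM* did not pass the test between the groups. *KRT5* and *KRT6B* were called lower in MDA-MB-468/R with all 4 libraries. These calls were lost without WT replicate 1 or WT replicate 2. The log2 fold changes were then -0.80 and -0.73 for *KRT5* and -0.88 and -0.81 for *KRT6B*. Of 3 genes listed as low in this line, *ERBB2* gave 94 and 77 reads in MDA-MB-468/R and 66 and 55 reads in MDA-MB-468/WT. *ESR1* lay the other way, with 2 and 9 reads in MDA-MB-468/R, against 22 and 11 reads in MDA-MB-468/WT. *PGR* gave 1 and 3 reads in MDA-MB-468/R, against 0 and 0 reads in MDA-MB-468/WT. *ERBB2* and *ESR1* did not pass the test between the groups, and *PGR* had too few reads for it.

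Collagen chains are hydroxylated in the endoplasmic reticulum before they fold. Prolyl hydroxylase acts on proline and gives the triple helix its thermal stability, and lysyl hydroxylases act on lysine and prepare it for sugar attachment and for cross-links. All of these enzymes need iron, alpha-ketoglutarate, oxygen and ascorbate. Outside the cell the lysyl oxidases, which carry copper, oxidise lysine and hydroxylysine side chains of collagen and elastin, and the resulting aldehydes form the covalent cross-links that stiffen the matrix. *LOX*, *LOXL2*, *PLOD2*, *P4HA1* and *P4HA2* are known targets of hypoxia-inducible factor (HIF), and LOX and LOXL2 have been studied in breast cancer for their part in matrix stiffening and metastasis.

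The 250 bases upstream of the start site are shown for 4 members, from RefSeq on GRCh38.p14, to set the sequence beside the direction of change: *LOX* was higher in MDA-MB-468/R, *PLOD2* and *PLOD3* were lower, and *P4HA1* was not called. Capitals mark the core of the hypoxia response element, searched as ACGTG and GCGTG on both strands, with overlapping matches counted separately.
LOX (chr5:122078260-122078509, minus strand): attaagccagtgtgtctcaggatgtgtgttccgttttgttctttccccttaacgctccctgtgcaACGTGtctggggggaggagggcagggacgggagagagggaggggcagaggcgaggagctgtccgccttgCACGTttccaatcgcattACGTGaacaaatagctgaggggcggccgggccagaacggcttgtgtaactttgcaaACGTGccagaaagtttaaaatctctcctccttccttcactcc
PLOD2 (chr3:146161185-146161434, minus strand): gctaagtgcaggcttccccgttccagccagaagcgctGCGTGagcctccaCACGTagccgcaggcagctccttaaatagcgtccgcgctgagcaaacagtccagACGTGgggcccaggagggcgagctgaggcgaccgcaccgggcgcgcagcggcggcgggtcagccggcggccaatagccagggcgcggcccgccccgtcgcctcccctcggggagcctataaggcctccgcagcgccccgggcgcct
PLOD3 (chr7:101217582-101217831, minus strand): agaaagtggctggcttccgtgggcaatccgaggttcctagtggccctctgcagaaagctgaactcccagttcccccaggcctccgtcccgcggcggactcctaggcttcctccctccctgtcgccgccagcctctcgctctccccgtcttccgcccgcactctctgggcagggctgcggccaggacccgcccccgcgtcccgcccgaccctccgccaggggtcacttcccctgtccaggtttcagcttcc
P4HA1 (chr10:73096867-73097116, minus strand): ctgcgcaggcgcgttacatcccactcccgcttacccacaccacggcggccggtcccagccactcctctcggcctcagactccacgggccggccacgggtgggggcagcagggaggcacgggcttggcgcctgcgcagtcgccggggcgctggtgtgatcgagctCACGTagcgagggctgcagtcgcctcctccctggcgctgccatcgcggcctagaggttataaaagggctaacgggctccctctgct
The *LOX* window held 4 matches, the *PLOD2* window 3, the *P4HA1* window 1 and the *PLOD3* window 0. Of 34788 windows of this length in the RefSeq table, 43.1% held at least 1 match, 7.70% held at least 3 and 3.19% held at least 4. Only 1 window per member was counted. *LOX* had 3 windows in the table and *LOXL3* had 2, and the matches in their other windows were not counted. Among the counted windows of the 9 members with an entry, the most matches belonged to the member that was higher in MDA-MB-468/R. The next most belonged to a member that was lower. *PLOD1*, which was not called, had 2 matches, and *LOXL1*, *LOXL3*, *LOXL4* and *P4HA2* had 0. The table's windows of *LOXL3* and *P4HA2* do not lie at the outermost start of the gene, and *LOXL2* had no entry. A match is a run of letters and not a measured binding site.

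Of the 10 members, 8 passed the filter on low values (10 reads or more in 2 or more libraries) and were tested. In MDA-MB-468/R, *LOX* was higher than in MDA-MB-468/WT, and *LOXL2*, *PLOD3*, *P4HA2* and *PLOD2* were lower, by limma's moderated test over all 12118 tested genes with Benjamini-Hochberg adjustment (adjusted p of at most 0.05). That is 1 higher and 4 lower of 8, beside 5.36% higher and 10.6% lower among all tested genes (16.0% in either direction). The libraries of the groups did not overlap for 5 of the 8, with MDA-MB-468/R above for 1 and below for 4, a separation found in 58.3% of all tested genes (26.1% above and 32.2% below). The median log2 fold change of the 8 members was -0.42, against -0.03 over all tested genes. The remaining 3 tested members, *LOXL3*, *PLOD1* and *P4HA1*, were not called, and *LOXL1* and *LOXL4* had too few reads for a test. At the fold threshold of the study, an adjusted p of at most 0.05 with at least 2.5-fold, *LOXL2* was the only member called, beside 0.809% higher and 2.45% lower DEGs among all tested genes. In these bulk libraries, fewer cells that make an RNA and less of that RNA per cell cannot be told apart.

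**Figure D1:**
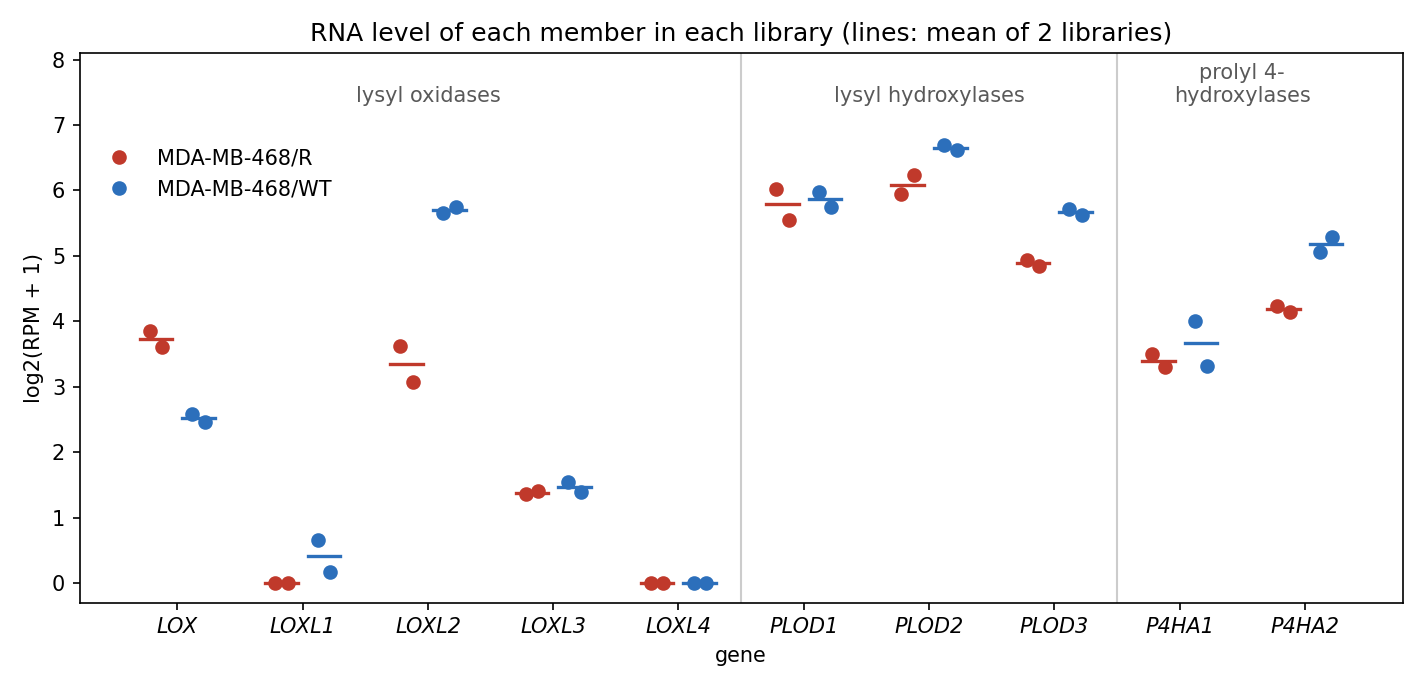
Log2(RPM + 1) on the y axis for the 10 members on the x axis, with 1 point per library of MDA-MB-468/R (red) and MDA-MB-468/WT (blue) and a line at the mean of 2 libraries. The red points sit above the blue ones for *LOX* and below them for *LOXL2*, *PLOD2*, *PLOD3* and *P4HA2*, *LOXL1* rests on 5 reads in all, and *LOXL4* is at 0 in all 4 libraries.

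Among the lysyl oxidases, *LOX* and *LOXL2* differed in opposite directions. *LOX*, which encodes the founding member of the family, a secreted enzyme activated by cleavage of its propeptide, had 13.4 and 11.2 RPM (94 and 82 reads) in MDA-MB-468/R, against 4.98 and 4.50 RPM (34 and 36 reads) in MDA-MB-468/WT. The groups did not overlap, and the gap between them was wider than the gap within either group. MDA-MB-468/R averaged 12.3 ± 1.56 RPM, against 4.74 ± 0.337 RPM in MDA-MB-468/WT (SD, n = 2 each), and limma gave a log2 fold change of 1.21 with a standard error of 0.190 (adjusted p = 0.00651). In RPM this was a 2.60-fold difference, and on the log2 scale with 1 RPM added it stayed under 2.5-fold. With 0.25 RPM added the log2 fold change was 1.33, and with limma-voom on the recovered reads it was 1.36, both past 2.5-fold. Whether *LOX* passes the fold threshold of the study thus depends on the value added. The *LOX* promoter printed above is the one with 4 core matches. Without WT replicate 1 the adjusted p of *LOX* was 0.159, and without WT replicate 2 it was 0.178.

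*LOXL2*, which encodes a lysyl oxidase with scavenger receptor domains that acts on collagen IV, had 11.3 and 7.40 RPM (79 and 54 reads) in MDA-MB-468/R, against 49.6 and 52.8 RPM (339 and 422 reads) in MDA-MB-468/WT. The groups did not overlap, and the MDA-MB-468/R libraries differed from each other more than the MDA-MB-468/WT libraries did. MDA-MB-468/R averaged 9.35 ± 2.76 RPM, against 51.2 ± 2.30 RPM in MDA-MB-468/WT (SD, n = 2 each), which made *LOXL2* 5.48-fold lower in RPM (log2 fold change -2.36 with a standard error of 0.202, and adjusted p = 4.93e-04 from limma). The adjusted p was 0.0644 without WT replicate 1 and 0.0705 without WT replicate 2.

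Within each library, the ratio of *LOX* to *LOXL2* reads was 1.19 and 1.52 in MDA-MB-468/R, against 0.100 and 0.0852 in MDA-MB-468/WT. The size of such a ratio depends on the amplicons, but its change between the groups, 3.86 on the log2 scale, does not depend on how a library is scaled. The ratio was computed after the values were seen and was not tested.

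The other lysyl oxidases had few reads, with *LOXL1* and *LOXL4* at or near the floor and *LOXL3* above it. *LOXL3* had 1.57 and 1.64 RPM (11 and 12 reads) in MDA-MB-468/R, against 1.91 and 1.62 RPM (13 and 13 reads) in MDA-MB-468/WT. The 2 groups overlapped, with a log2 fold change of -0.09 (95% interval -0.61 to 0.44, adjusted p = 0.839 from limma). *LOXL1*, which is needed for elastic fibre maintenance in mice, had 0 reads in both MDA-MB-468/R libraries, against 4 and 1 reads in the MDA-MB-468/WT libraries. At these depths 0 reads allow up to 0.428 and 0.409 RPM, and the exact 95% counting interval of the ratio of MDA-MB-468/R to MDA-MB-468/WT reached from 0 to 1.13, so a difference in *LOXL1* was not detectable. *LOXL4* had 0 reads in all 4 libraries, which allows up to 0.376 to 0.439 RPM. Such intervals and floors take in counting error alone, because PCR reads without molecular identifiers are not independent molecules.

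**Figure D2:**
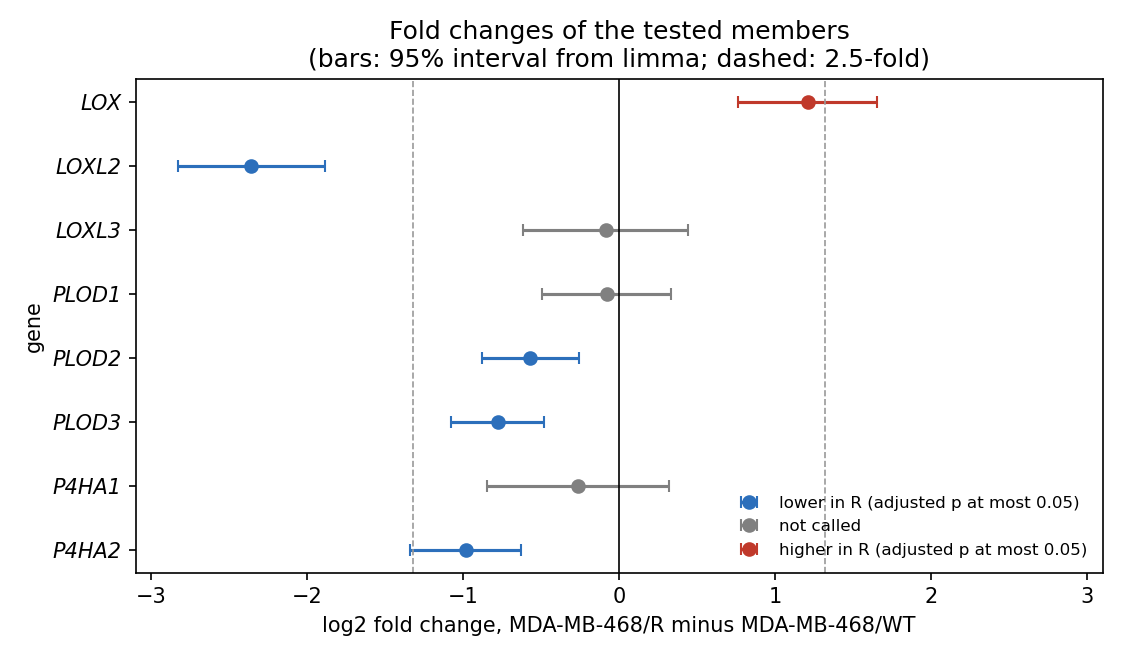
Log2 fold change (MDA-MB-468/R minus MDA-MB-468/WT) along the x axis for the 8 tested members on the y axis, with 95% intervals from limma and dashed lines at 2.5-fold. *LOX* is at 1.21 and *LOXL2* at -2.36, and the intervals of *LOXL3*, *PLOD1* and *P4HA1* include 0.

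Of the 3 lysyl hydroxylases, *PLOD3* and *PLOD2* were lower in MDA-MB-468/R and *PLOD1* was not called. *PLOD3*, whose product also transfers sugars to hydroxylysine, had 29.5 and 27.8 RPM (207 and 204 reads) in MDA-MB-468/R, against 51.7 and 48.2 RPM (354 and 385 reads) in MDA-MB-468/WT. The gap between the groups was several times that within them, and *PLOD3* was 1.74-fold lower in RPM (log2 fold change -0.78 with a standard error of 0.128, and adjusted p = 0.00771 from limma).

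*PLOD2*, whose product hydroxylates lysines of the collagen telopeptides and so favours stable cross-links, had 60.4 and 74.1 RPM (423 and 543 reads) in MDA-MB-468/R, against 103 and 96.7 RPM (704 and 772 reads) in MDA-MB-468/WT. The groups did not overlap, although the MDA-MB-468/R libraries were spread. *PLOD2* was 1.48-fold lower (log2 fold change -0.57 with a standard error of 0.132, and adjusted p = 0.0272 from limma). Its promoter, with 3 core matches, is printed above beside that of *PLOD3*, which has 0.

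*PLOD1*, whose product hydroxylates lysines of the triple helix, had 63.9 and 45.9 RPM (448 and 336 reads) in MDA-MB-468/R, against 62.1 and 52.8 RPM (425 and 422 reads) in MDA-MB-468/WT. The groups overlapped, and the log2 fold change was -0.08 (95% interval -0.49 to 0.33, adjusted p = 0.803 from limma). The sign of this value turned with the libraries used, with 0.16 without R replicate 2 and 0.04 without WT replicate 1. In each library, the ratio of *PLOD3* to *PLOD1* was 0.461 and 0.607 in MDA-MB-468/R, against 0.832 and 0.912 in MDA-MB-468/WT, and that of *PLOD2* to *PLOD1* was 0.945 and 1.62 in MDA-MB-468/R, against 1.66 and 1.83 in MDA-MB-468/WT. Both ratios were lower in each MDA-MB-468/R library than in either MDA-MB-468/WT library, and neither was tested. The call of *PLOD3* was lost without WT replicate 1 (adjusted p = 0.248) or WT replicate 2 (0.200). The call of *PLOD2* was lost without R replicate 1 (adjusted p = 0.0518), WT replicate 1 (0.392) or WT replicate 2 (0.319).

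Of the 2 alpha subunit genes of prolyl hydroxylase among the members, *P4HA2* was lower in MDA-MB-468/R and *P4HA1* was not called. *P4HA3*, an alpha subunit gene outside the members, gave 5 and 14 reads in MDA-MB-468/R, against 9 and 21 reads in MDA-MB-468/WT. It was not called either (log2 fold change -0.375, adjusted p = 0.508 from limma). Each alpha subunit carries the active site and joins protein disulfide isomerase, the product of *P4HB*, in the enzyme. *P4HA2* had 17.9 and 16.6 RPM (125 and 122 reads) in MDA-MB-468/R, against 32.4 and 38.1 RPM (221 and 304 reads) in MDA-MB-468/WT. The MDA-MB-468/R libraries were close to each other and both lay below the MDA-MB-468/WT libraries. *P4HA2* was 2.04-fold lower (log2 fold change -0.98 with a standard error of 0.151, and adjusted p = 0.00590 from limma).

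*P4HA1* had 10.3 and 8.85 RPM (72 and 65 reads) in MDA-MB-468/R, against 15.1 and 8.99 RPM (103 and 72 reads) in MDA-MB-468/WT. The MDA-MB-468/WT libraries lay further apart than the MDA-MB-468/R libraries, and R replicate 1 lay inside their range. The log2 fold change was -0.27 (95% interval -0.85 to 0.32, adjusted p = 0.521 from limma), and it was 0.08 without WT replicate 1. The ratio of *P4HA2* to *P4HA1* was 1.74 and 1.88 in MDA-MB-468/R, against 2.14 and 4.24 in MDA-MB-468/WT. This ratio rests on the *P4HA1* value of each MDA-MB-468/WT library and was not tested. The adjusted p of *P4HA2* was 0.0503 without R replicate 2, 0.152 without WT replicate 1 and 0.216 without WT replicate 2.

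**Figure D3:**
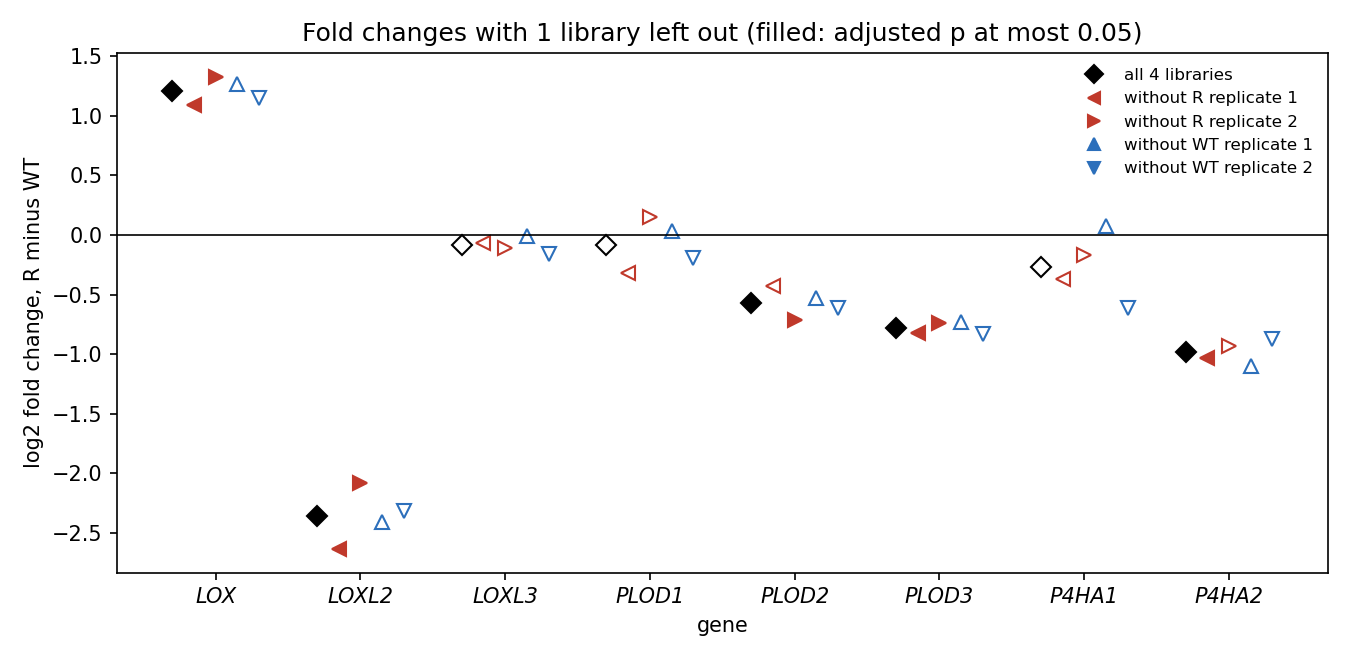
Log2 fold changes on the y axis, MDA-MB-468/R minus MDA-MB-468/WT, for the 8 tested members on the x axis, with all 4 libraries (black) and with each library left out in turn (red for MDA-MB-468/R, blue for MDA-MB-468/WT), filled where the adjusted p was at most 0.05. The blue symbols are all open, and *LOX* stays between 1.09 and 1.33 and *LOXL2* between -2.63 and -2.08.

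The genes most like each called member over the 4 libraries, by Euclidean distance between centred log2 values, were taken from all tested genes. Nearest to *LOX* were *DGAT1* (distance 0.0865, log2 fold change 1.21), *SLC4A4* and *C8orf82*. Nearest to *LOXL2* was the collagen-binding integrin subunit gene *ITGA2*, at a distance of 0.0436 with a log2 fold change of -2.33, followed by *H2AFY2* and the leukocyte integrin subunit gene *ITGB2*. *HDAC6*, the integrin subunit gene *ITGB1* and *IGSF8* were nearest to *PLOD3* at 0.0200 to 0.0458, and *VPS29*, *LPGAT1* and *SOAT1* to *PLOD2* at 0.0224 to 0.0433. *ADAMTSL4*, *GABRA3* and *KLK8* were nearest to *P4HA2* at 0.0753 to 0.0876. With 2 groups of 2 libraries, a small distance says mainly that a gene differed between the groups by a like amount.

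None of the tested genes that work with the members in collagen folding was called by the main test. Of 14 partners and related enzymes of the endoplasmic reticulum, 12 were tested and none was called in either direction, beside 16.0% of all tested genes. A list of 12 genes would hold few calls at that share. The log2 fold changes of the 12 lay between -0.63 and 0.39 with a median of 0.06. At an unadjusted p of at most 0.05, 4 were higher and 2 were lower. Among all 12118 tested genes, 1480 were higher and 2310 were lower at that threshold. RLE scaling called 2 higher and 0 lower, beside 783 higher and 1236 lower among all tested genes. With limma-voom 0 of the 12 were called, beside 655 higher and 1331 lower among all tested genes. Several partners lay just over the threshold by limma, with *PPIB* above MDA-MB-468/WT (adjusted p = 0.0615) and *COLGALT1* (0.0644) and *P3H2* (0.0684) below it. *P4HB* had 634 and 791 RPM in MDA-MB-468/R, against 571 and 575 RPM in MDA-MB-468/WT, a log2 fold change of 0.30 with a standard error of 0.123 (adjusted p = 0.138 from limma). *SERPINH1*, which encodes the collagen chaperone HSP47, had 125 and 104 RPM in MDA-MB-468/R, against 85.8 and 87.0 RPM in MDA-MB-468/WT, a log2 fold change of 0.39 (adjusted p = 0.0743). Both genes lay above MDA-MB-468/WT in both MDA-MB-468/R libraries, a separation in this direction found in 26.1% of all tested genes. *P4HB* passed without R replicate 1 (adjusted p = 0.0241), and *SERPINH1* passed with RLE scaling (0.0467) and without R replicate 2 (0.0329).

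Genes that act on procollagen or on LOX outside the cell moved both ways. Of 12 listed, 5 were tested, 2 were lower and 2 were higher (10.6% and 5.36% among all tested genes). *BMP1*, whose product removes the propeptides of procollagen and of LOX, had 18.4 and 15.0 RPM in MDA-MB-468/R, against 40.1 and 38.7 RPM in MDA-MB-468/WT, a log2 fold change of -1.20 with a standard error of 0.154 (adjusted p = 0.00285 from limma). *FN1*, the gene of fibronectin, which binds LOX and aids its activation, was lower by a log2 fold change of -2.26. *FBLN5*, the gene of the elastic fibre protein fibulin-5, had 18.8 and 20.6 RPM in MDA-MB-468/R, against 3.66 and 5.28 RPM in MDA-MB-468/WT, a log2 fold change of 1.93 (adjusted p = 0.00118). The procollagen protease gene *ADAMTS3*, named after its values were seen, gave 19 and 18 reads in MDA-MB-468/R, against 3 and 6 reads in MDA-MB-468/WT. *LOX* and *FBLN5* were thus higher beside a lower *BMP1*. These calls were lost without WT replicate 1 or 2, with adjusted p of 0.160 and 0.140 for *BMP1*, 0.0753 and 0.0781 for *FN1* and 0.0774 and 0.0593 for *FBLN5*. The *ADAMTS3* call was also lost without R replicate 1 or R replicate 2, and with a filter of 50 reads the gene was not tested.

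Among the collagen substrates, few chains were detected. Of 12 fibrillar collagen and elastin genes, 2 were tested. *COL5A2* had 3.44 and 1.77 RPM in MDA-MB-468/R, against 112 and 108 RPM in MDA-MB-468/WT. Its log2 fold change was -4.98 (adjusted p = 5.47e-05 from limma). *COL5A1* and *COL5A3*, the other type V collagen genes of the list, gave 0 reads in all 4 libraries. *COL1A1* had 13.8 and 10.5 RPM in MDA-MB-468/R, against 16.9 and 17.5 RPM in MDA-MB-468/WT (log2 fold change -0.48, adjusted p = 0.122). *COL1A2*, whose chain pairs with that of *COL1A1* in type I collagen, gave 1 and 6 reads in MDA-MB-468/R, against 0 and 0 reads in MDA-MB-468/WT. Of 6 collagen IV genes, 3 were tested, and *COL4A2* and *COL4A1*, whose chains join in the common collagen IV of basement membranes, were lower. Thus 2 of 3 tested collagen IV genes and 1 of 2 tested fibrillar genes were lower and none was higher. Over all tested genes 10.6% were lower and 5.36% were higher. *COL4A2* had 1.85 and 1.08 RPM in MDA-MB-468/R, against 7.57 and 6.16 RPM in MDA-MB-468/WT (log2 fold change -1.69, adjusted p = 0.00475), and *COL4A1* had 0.569 and 0.275 RPM in MDA-MB-468/R, against 3.23 and 3.26 RPM in MDA-MB-468/WT. *COL4A5*, the tested collagen IV gene with the most reads, had 34.3 and 26.7 RPM in MDA-MB-468/R, against 30.6 and 30.6 RPM in MDA-MB-468/WT (log2 fold change -0.01, adjusted p = 0.961). The *COL4A1* values of MDA-MB-468/R, 4 and 2 reads, were around the floor of 3 reads. The size of both changes moved with the value added, with log2 fold changes of -0.99 and -0.71 for *COL4A2* and *COL4A1* with 4 RPM added and -2.20 and -2.83 with limma-voom, and with the filter of 50 reads neither was tested. Without WT replicate 1 or 2 the adjusted p was 0.143 and 0.105 for *COL4A2* and 0.111 and 0.108 for *COL4A1*, while *COL5A2* still passed.

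Fibroblasts are a main source of lysyl oxidases and collagens in tissue, and most of their markers were low in both groups. Of 10 markers, 2 were tested, neither was called, and 3 of the 10, *DCN*, *PDGFRB* and *POSTN*, had 0 reads in all 4 libraries. The summed level of the 10 markers was 19.5 and 18.0 RPM in MDA-MB-468/R, against 19.9 and 21.0 RPM in MDA-MB-468/WT, most of it from *COL1A1*. *FAP*, the gene of fibroblast activation protein and the other tested marker, had 4.58 and 5.32 RPM in MDA-MB-468/R, against 2.63 and 2.76 RPM in MDA-MB-468/WT, a log2 fold change of 0.69 (adjusted p = 0.0647 from limma). *PDGFRA* gave 6 and 4 reads in MDA-MB-468/R, against 2 and 1 reads in MDA-MB-468/WT. *THY1* gave 1 and 2 reads in MDA-MB-468/R, against 0 and 0 reads in MDA-MB-468/WT. Both were above MDA-MB-468/WT at a few reads each, as was *COL1A2*. *LUM* lay below in RPM, with 0 and 1 reads in MDA-MB-468/R, against 1 and 2 reads in MDA-MB-468/WT. *COL1A1* also lay below. *COL3A1* overlapped, with 0 and 3 reads in each group. The part of such markers in the members' values was not tested.

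Hypoxia-induced genes, a group to which several members are known to belong, were lower in part. Of 16 listed genes, 15 were tested, 8 were lower and none was higher, beside 10.6% lower and 5.36% higher among all tested genes, and the median log2 fold change was -0.55 against -0.03 over all tested genes. *CA9*, the gene of carbonic anhydrase IX, had 12.7 and 15.4 RPM in MDA-MB-468/R, against 74.1 and 72.0 RPM in MDA-MB-468/WT, a log2 fold change of -2.30 (adjusted p = 1.65e-04 from limma). The glucose transporter gene *SLC2A1* had 339 and 415 RPM in MDA-MB-468/R, against 728 and 694 RPM in MDA-MB-468/WT (log2 fold change -0.92), and *ANKRD37* had 1.43 and 1.08 RPM in MDA-MB-468/R, against 3.79 and 3.14 RPM in MDA-MB-468/WT. *VEGFA* and *ENO1* of the same list were not called, with log2 fold changes of 0.36 and 0.29. Of the members known as HIF targets, *LOXL2*, *P4HA2* and *PLOD2* were lower, *P4HA1* was not called and *LOX* was higher. Without WT replicate 1 or without WT replicate 2, 0 of the hypoxia-induced genes passed. Without R replicate 1 there were 8 lower and 1 higher, without R replicate 2 there were 6 lower and 2 higher, and an unadjusted p gave 10 lower and 2 higher. *ANKRD37* also missed the threshold without R replicate 1 (adjusted p = 0.0631) or R replicate 2 (0.0830).

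The list of HIF genes, *VHL* and the genes of HIF's own hydroxylases held 9 tested genes. Those hydroxylases belong to the same enzyme class as the PLOD and P4HA proteins. Of the 9 genes, 3 were lower and none was higher, beside 10.6% lower and 5.36% higher among all tested genes. *EPAS1*, which encodes another HIF alpha subunit, had 68.1 and 42.1 RPM in MDA-MB-468/R, against 41.8 and 39.8 RPM in MDA-MB-468/WT. It was not called (log2 fold change 0.385, adjusted p = 0.265 from limma). *HIF1A* had 106 and 99.4 RPM in MDA-MB-468/R, against 97.4 and 102 RPM in MDA-MB-468/WT, a log2 fold change of 0.04 with a standard error of 0.107 (adjusted p = 0.817 from limma). *EGLN1* and *EGLN3*, which encode the prolyl hydroxylases that mark HIF for degradation, were lower by log2 fold changes of -0.85 and -0.80, and *ARNT*, the gene of the partner of the HIF alpha subunits, by -0.49. *EGLN3* had 102 and 110 RPM in MDA-MB-468/R, against 184 and 186 RPM in MDA-MB-468/WT (adjusted p = 0.00289). The *EGLN1* libraries of MDA-MB-468/R were spread at 23.9 and 37.6 RPM, against 57.1 and 52.8 RPM in MDA-MB-468/WT (adjusted p = 0.0314). Without WT replicate 1 or 2 none of the 3 passed, and *EGLN1* also missed the threshold without R replicate 1 (adjusted p = 0.0513) and *ARNT* without R replicate 2 (0.0724). Without R replicate 2, 1 gene of the list was higher.

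Over the 8 lists around the members, which hold 82 genes, 53 were tested, and 2 were higher and 19 were lower in MDA-MB-468/R. These are 3.77% and 35.8% of the tested genes of the lists, beside 5.36% and 10.6% among all tested genes. The lists were put together with earlier results of these data known, so the counts describe these genes and are not independent evidence of a direction. Nearly all of the 21 calls were lost without WT replicate 1 or without WT replicate 2, as were most calls over all tested genes.

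**Figure D4:**
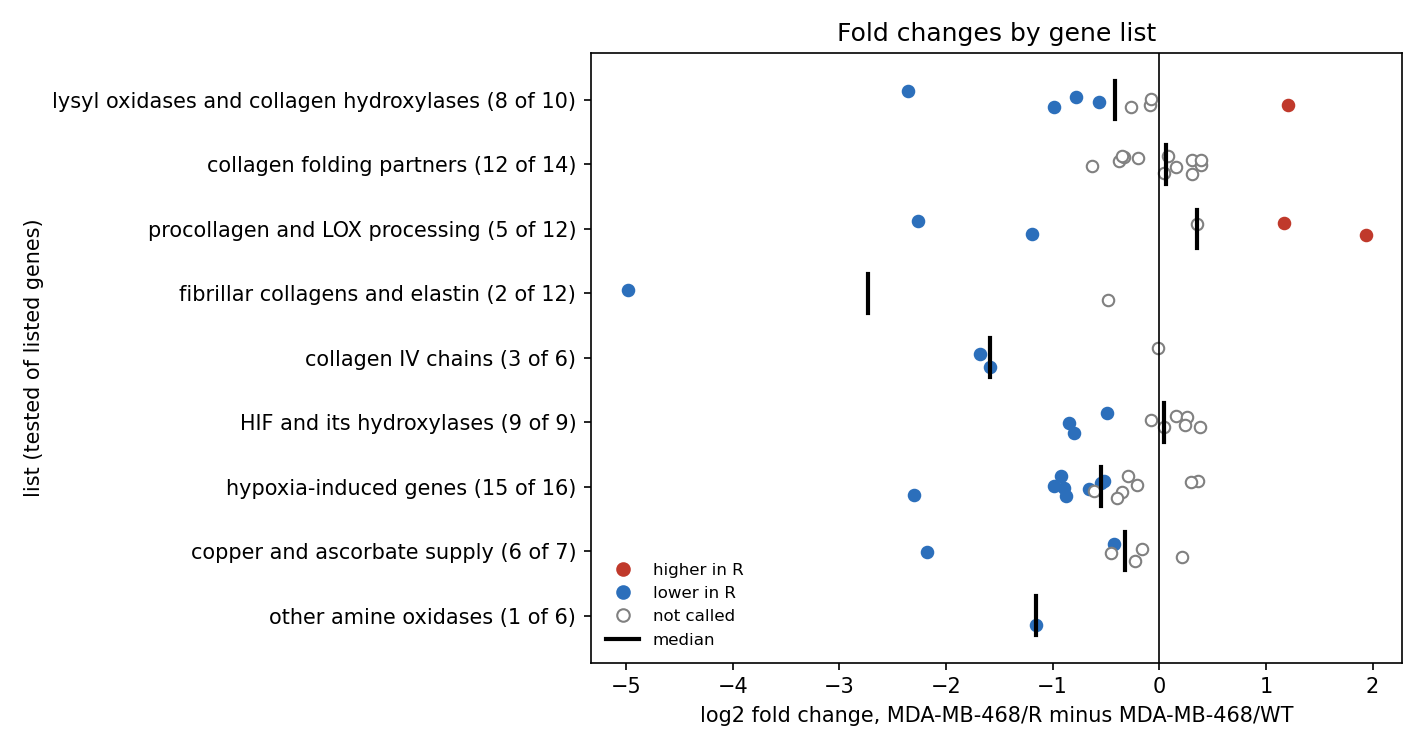
Log2 fold change (MDA-MB-468/R minus MDA-MB-468/WT) along the x axis of the tested genes of 9 groups on the y axis, with 1 point per gene (red higher, blue lower, open not called) and a black bar at the median. The members lie between -2.36 and 1.21, the collagen folding partners lie between -0.63 and 0.39 with no called gene, and *COL5A2* is the point at -4.98.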

How the data were processed

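RNA of MDA-MB-468/R and of MDA-MB-468/WT was measured in 2 libraries each with an Ion AmpliSeq kit. Per the methods of the study, reads were aligned with the Torrent Mapping Alignment Program to the targeted transcripts; the submitters' notes list 3 tools with no version (bedtools, Bowtie2 and, by the authors, edgeR), and the build is not given in the sources used here. The authors deposited log2 values, rounded to 2 decimals, of RPM plus 1, and the values taken back to RPM summed to 999854 to 1000057 per library. The size of 1 read was found from the low values, on which scale every value of 20 reads or fewer fell within 0.1 of a whole read. Larger read numbers are rounded estimates.

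A count model had been planned in case the files held counts; since they hold log2 values, limma 3.58.1 in R 4.3.3 (group as the only term, variances moderated along a trend with the mean, two-sided) was used on the deposited values of the 12118 genes with at least 10 reads in at least 2 libraries, with 2 residual and 5.40 prior degrees of freedom. Calls used a Benjamini-Hochberg adjusted p of at most 0.05, and DEG calls also 2.5-fold. Alternatives were RLE scaling, 0.25 or 4 RPM added, no filter or a filter of 50 reads, limma-voom on recovered reads, an unadjusted p, the replicate block and each library left out. Members and lists were chosen with earlier results of these data known. Named genes were all members, up to 3 called genes of each list with the largest change, *P4HB*, *SERPINH1*, *BMP1* and *HIF1A*, and the 3 nearest patterns of each called member; *KRT5*, *KRT6B* and others needed to describe a list were added. Older symbols were matched for 7 list genes.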

Additional observations from a re-analysis of the deposited data

How the results depend on the processing

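Each called member kept its direction and its adjusted p of at most 0.05 under RLE scaling, both other pseudocounts, no filter, the filter of 50 reads, limma-voom and an unadjusted p. The replicate numbers gave no pairing (correlation of same-numbered deviations 0.00868), and with the number as a replicate block all 5 called members still passed, as did 18 of 21 called list genes, with *ARNT* (adjusted p = 0.0657 from limma) and *ATOX1* (0.0664) among those lost. With 1 library left out, the log2 fold change ranged from 1.09 to 1.33 for *LOX*, -2.63 to -2.08 for *LOXL2*, -0.71 to -0.42 for *PLOD2*, -0.83 to -0.73 for *PLOD3*, -1.10 to -0.87 for *P4HA2*, -0.32 to 0.16 for *PLOD1*, -0.61 to 0.08 for *P4HA1* and -0.16 to -0.01 for *LOXL3*. The members called were 0 to 1 higher and 0 to 3 lower, with 0 when a MDA-MB-468/WT library was left out; the lone library is then assumed to vary like the MDA-MB-468/R pair. Over all genes these fits gave 9 to 751 higher, 48 to 1305 lower, 9 to 90 higher DEGs and 48 to 307 lower DEGs, against 649, 1290, 98 and 297 with all libraries. For the 53 tested list genes they gave 0 to 6 higher, 1 to 18 lower and a median of -0.36 to -0.29, against 2, 19 and -0.35. RLE scaling gave 4 higher list genes and a median of -0.31. With 4 RPM added, 51 higher and 140 lower DEGs were called and the list median was -0.29, and with no filter it was -0.20. The filter of 50 reads left 190 lower DEGs and 1 higher list gene, and limma-voom gave 157 higher DEGs. An unadjusted p gave 1480 higher and 2310 lower genes and 9 higher list genes. With no filter *LOXL1* had a log2 fold change of -0.42 (adjusted p = 0.207 from limma). The cause of these shifts was not tested, and the few reads of *LOXL1*, *LOXL3* and *LOXL4* limit what 4 libraries can show.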

Other observations

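Genes that supply the cofactors of these enzymes were lower in part in MDA-MB-468/R. Of 7 copper and ascorbate genes, 6 were tested, 2 were lower and none was higher, beside 10.6% and 5.36% among all tested genes. *SLC23A1*, the gene of an ascorbate transporter, did not reach the filter, with 6 and 7 reads in MDA-MB-468/R, against 2 and 0 reads in MDA-MB-468/WT. With no filter, or without R replicate 1, 1 gene of the list was higher. *SLC2A3*, a glucose transporter gene whose product also carries oxidised ascorbate, had 0 reads in both MDA-MB-468/R libraries, against 20 and 34 reads in MDA-MB-468/WT, and was at least 8.55-fold lower against a floor of 3 reads per library. *ATOX1*, the gene of the chaperone that hands copper to the secretory pathway, had 129 and 126 RPM in MDA-MB-468/R, against 174 and 169 RPM in MDA-MB-468/WT, a log2 fold change of -0.42 (adjusted p = 0.0274 from limma, and 0.413 and 0.364 without WT replicate 1 and 2), and its call was lost with the replicate number as a block (adjusted p = 0.0664). Of 6 other amine oxidase genes, *SMOX*, the gene of spermine oxidase, was tested. It had 12.7 and 8.45 RPM in MDA-MB-468/R, against 24.5 and 24.3 RPM in MDA-MB-468/WT (log2 fold change -1.16, adjusted p = 0.0106 from limma). Below the filter, *AOC3* gave 11 and 5 reads in MDA-MB-468/R, against 2 and 1 reads in MDA-MB-468/WT. *AOC2* gave 6 and 17 reads in MDA-MB-468/R, against 7 and 8 reads in MDA-MB-468/WT. *MAOA* gave 0 and 1 reads in MDA-MB-468/R, against 2 and 2 reads in MDA-MB-468/WT. Without WT replicate 1 and 2, the log2 fold change was -1.15 and -1.16 for *SMOX* and -2.39 and -1.97 for *SLC2A3*. Neither call was kept in these fits.

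The neighbours of the members in the RefSeq gene order, 10 tested genes on each side had these values beside the members. For *LOX*, 2 of 20 neighbours were higher and 0 were lower, with a median log2 fold change of -0.03 beside 1.21 for *LOX*. For *LOXL2*, 1 of 20 was lower and 0 were higher, with a median of -0.23 beside -2.36. For *P4HA2*, 3 of 20 were lower (median -0.17), for *PLOD2* 4 of 20 (median -0.08) and for *PLOD3* 2 of 20 (median -0.02), and none of these neighbours was higher, where 10.6% of all tested genes were lower and 5.36% were higher.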
